A study of Homo sapiens with 4 samples.

Results

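CD74-high RVT cells were RVT cells with at least 4 UMIs of *CD74*, a UMI being a unique molecular identifier that stands for 1 captured transcript. They numbered 1139 of the 9313 RVT cells and of 28640 cells in the whole series, and they were compared with the 2860 RVT cells that had no *CD74* UMI, named CD74-zero cells. Only barcodes with 500 or more genes and no more than 20% of UMIs on mitochondrial genes entered. CD74-high cells made up 12.2% of RVT cells (exact binomial interval 11.6% to 12.9%), and CD74-zero cells made up 30.7%. The cells were chosen by their *CD74* UMI counts, so values of *CD74* itself are given as a description.

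The study used A375, an established human melanoma line with the *BRAF* V600E mutation, in 4 cultures. S cells were untreated and sensitive. RV cells were made resistant to the BRAF inhibitor vemurafenib. RVC and RVT cells were made resistant to vemurafenib together with the MEK1/2 inhibitor cobimetinib or trametinib, respectively. The drugs were given for 10 to 14 days at low concentration and were taken away 24 h before capture, so that the cells were measured without drug. Each culture gave 1 droplet library (10000 cells loaded), and all came from the same line grown in medium with fetal calf serum.

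*CD74* encodes the invariant chain, which binds newly made MHC class II molecules in the endoplasmic reticulum, blocks their peptide groove and guides them to the endosome. There lysosomal proteases degrade it and HLA-DM exchanges its last fragment for an antigenic peptide. Class II genes are typical of professional antigen-presenting cells, and other cells, melanoma cells included, can express them through the coactivator CIITA, commonly after interferon gamma. *CD74* at the cell surface is also known as a receptor of the cytokine MIF.

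Promoters of *CD74* and of class II genes are known to share a Y box, whose core CCAAT binds the factor NF-Y. The RefSeq sequences (GRCh38.p14) of the 250 bases before the start of *CD74*, which chose the cells, and of *HLA-DMA*, a class II gene measured well in RVT, are shown for this reason, with each CCAAT or its reverse ATTGG in capitals. The *CD74* window is chr5:150412911-150413160 and the *HLA-DMA* window is chr6:32953098-32953347, both read on the minus strand from 5′ to 3′.
CD74: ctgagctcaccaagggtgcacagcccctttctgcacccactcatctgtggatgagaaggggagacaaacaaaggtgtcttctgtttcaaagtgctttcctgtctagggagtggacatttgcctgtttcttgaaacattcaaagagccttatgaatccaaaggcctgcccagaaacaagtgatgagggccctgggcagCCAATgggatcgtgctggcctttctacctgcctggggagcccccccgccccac
HLA-DMA: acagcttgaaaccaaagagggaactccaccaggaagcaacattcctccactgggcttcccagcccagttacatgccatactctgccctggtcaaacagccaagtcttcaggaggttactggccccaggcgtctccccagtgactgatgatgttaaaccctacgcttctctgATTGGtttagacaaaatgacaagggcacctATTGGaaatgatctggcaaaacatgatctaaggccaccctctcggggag
The letters begin 53 bases before the start in *CD74*, and 79 and 49 bases before it in *HLA-DMA*. Of 20 genes asked (*CD74* and a list of 19 class II chain, chaperone and processing genes, not all of them named here), 16 were in the promoter table and 14 of these held CCAAT on either strand, whereas 32.0% of all 35116 windows did. The longer string CTGATTGG, which contains ATTGG, occurred on either strand in 6 of the 16 and in 3.81% of all windows. A gene counted if any of its windows held the string, but windows were counted singly, so these shares are in unlike units. A match of letters is a description and no binding was measured. The *HLA-DRA* promoter is not shown.

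*CD74* lies at chr5:150401637-150412929 (GRCh38, GENCODE 29, minus strand). Of the RVT cells, 2597 had 1 UMI of it, 1713 had 2, 1004 had 3 and were just outside the class, and 557 had 4 and were just inside. A further 290 cells had 5, 140 had 6 and 152 had 7 or more, up to 18. The distribution thus had no gap at the threshold, and cells of 3 and 4 UMIs differed little in depth, with medians of 3432 and 3695 UMIs. Depth changed across the classes, from a median of 2351.5 UMIs and 886 genes in CD74-zero cells to 3895 UMIs and 1196 genes in CD74-high cells, so the classes differ in depth as well as in *CD74*. In CD74-high cells 5743 UMIs were of *CD74*.

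**Figure D1:**
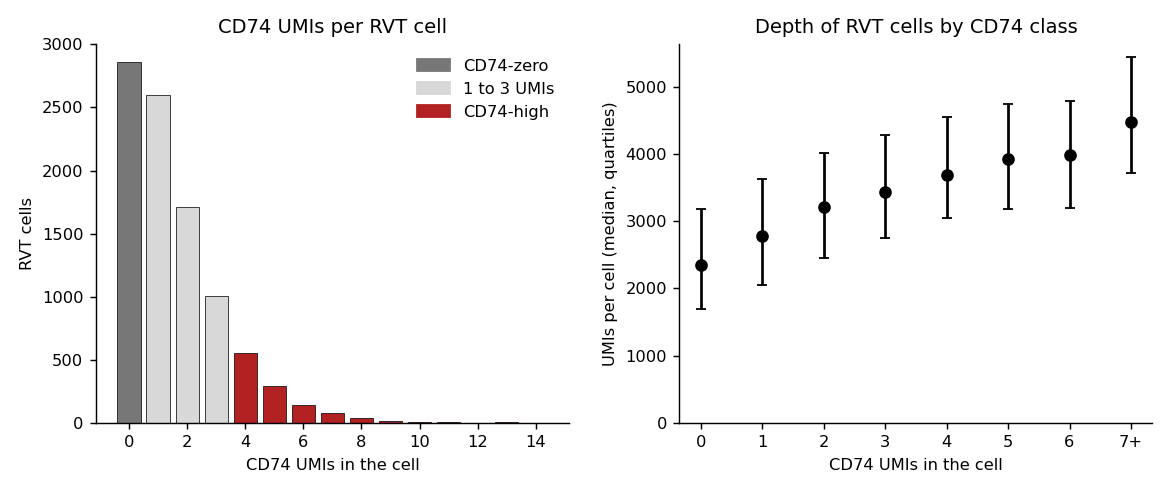
Left, number of RVT cells (vertical axis) by *CD74* UMIs in the cell (horizontal axis), with CD74-zero cells in dark grey and CD74-high cells in red. Right, UMIs per cell by *CD74* class, as medians (points) and quartiles (bars). The counts pass through the threshold of 4 UMIs without a gap, and the median depth goes from 2351.5 to 4474 UMIs.

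RVT cells with at least 1500 UMIs were thinned at random to that number, 8461 cells, which left out 852 shallower ones (403 in RVC and none in S or RV). In the thinned cells the variance of *CD74* UMIs over cells was 1.22 times their mean in RVT, where a value of 1 is what counting alone gives. For S, RV and RVC this ratio was 2.70, 2.91 and 1.13. At this depth 1.69% of RVT cells (1.43% to 1.99%) kept 4 or more *CD74* UMIs, against 11.4% of S, 2.61% of RV and 0.0886% of RVC cells. Of the 8461 thinned RVT cells 50.2% had no *CD74* UMI. The mean was 0.77 *CD74* UMIs per thinned cell in RVT, 1.33 in S, 0.48 in RV and 0.23 in RVC, and since the ratio depends on the mean it gives no order of cell-to-cell variation between cultures.

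The 4 libraries had median depths of 2951 (RVT) to 11648 UMIs per cell (RV). The filter removed 1114 of 10427 RVT barcodes, and 30 CD74-high and 79 CD74-zero barcodes also occurred in another library. Without these, the *HLA-DRA* log2 ratio described next was 1.42, against 1.41 with them, and without the highest doublet scores it was 1.46. Between CD74-high and CD74-zero cells the mitochondrial share of UMIs was 5.78% and 5.96%, the ribosomal protein share 41.5% and 37.5%, and the share of cells among the 870 highest doublet scores 12.7% and 6.50%. The part of these differences in the results was not tested, except where a value without them is given. Leukocyte markers had 8 UMIs in all CD74-high cells and 17 in all CD74-zero cells, with no UMI of *PTPRC*, and the B cell markers *CD79A*, *CD79B* and *MS4A1* and the T cell, dendritic and epithelial lists were at 0 in both classes. Myeloid markers had 4 and 6 UMIs and endothelial markers 1 and 1. No cells in these cultures can be taken as free of class II transcripts, so the share of cells that free RNA alone would give a UMI is unknown here.

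Levels are given from here on as CPM, the UMIs of a gene per 1000000 UMIs of genes other than *CD74*, summed over the cells of a class, with exact 95% Poisson intervals. The CD74-high class held 4624686 such UMIs and the CD74-zero class 7276093, so equal UMI counts of a gene mean a higher level in CD74-high cells. These intervals and all others cover counting error only. RVT is 1 library and cells are not replicates, so no difference was tested. A gene was called higher or lower past 1.5-fold, among 6708 genes with at least 10 CPM over all RVT cells. By this rule 15 genes (0.224%) were higher and 177 (2.64%) were lower in CD74-high cells. In the simulated sums described below, 0.476% of unchanged genes were called in either direction. That share covers both directions and comes from genes centred on a ratio of 1. It is thus no like measure for the higher or the lower genes alone. The median gene had a log2 ratio of -0.11 (SD over genes 0.23), and 68.6% of the genes were below 1. The excess of lower genes depended on the scaling, since centring on the median gene gave 59 higher and 77 lower genes, and scaling without ribosomal and mitochondrial genes 53 and 83. Since the classes differ in depth, CD74-zero cells were also weighted so that their UMIs fell into 5 depth strata in the proportions of the CD74-high cells. This depth-weighted comparison called 111 genes higher and 250 lower, with a median log2 ratio of -0.05 (SD over genes 0.29), and 12 higher and 102 lower genes were called in both. The shallowest stratum held 2007 CD74-zero cells and the deepest 78, of which 30 had 3 or more UMIs of the G2/M list described below. Depth-weighted values thus lean on few CD74-zero cells at the deep end and carry no interval.

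*HLA-DRA* (chr6:32439842-32445046, plus strand), the alpha chain of HLA-DR, had the largest ratio of the 1540 genes open to naming. It stood at 55.4 CPM (50.1 to 61.1) in CD74-zero cells, at 73.2, 73.9 and 96.7 in cells with 1, 2 and 3 *CD74* UMIs, and at 148 (137 to 159) in CD74-high cells. Within the high class it was at 122 in cells with 4 UMIs, 157 with 5, 183 with 6 and 181 with 7 or more. The level was thus higher at more *CD74* UMIs, with like levels at 1 and 2 UMIs and again at 6 and at 7 or more, and cells just outside the class lay between both ends. CD74-high over CD74-zero cells the ratio was 2.67-fold (2.35 to 3.02), or 1.41 on the log2 scale, and depth-weighted it was 3.02-fold.

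*HLA-DRA* was higher in CD74-high cells in each of the 5 depth strata. The levels in CD74-high and CD74-zero cells were 198 and 57.9 CPM in the shallowest stratum, 148 and 64.6 in the next, 152 and 50.6 in the middle, 146 and 38.6 in the fourth and 125 and 43.4 in the deepest. The counting intervals of the classes overlapped in none of them, and the ratio ran from 2.30-fold (1.71 to 3.10) to 3.78-fold (2.49 to 5.98). In the shallowest stratum the classes were not fully matched, with medians of 2560.5 and 1945 UMIs, whereas in the deepest they were 5572 and 5570.5 UMIs. When the classes were formed anew from cells thinned to 1500 UMIs, with 2 or more *CD74* UMIs (1607 cells) as high and 0 (4246 cells) as zero, the ratio was 1.88-fold. This is another contrast than the main one, since its zero class also holds cells with *CD74* UMIs at full depth. A ratio short of 1.5-fold in it does not by itself end a call.

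**Figure D2:**
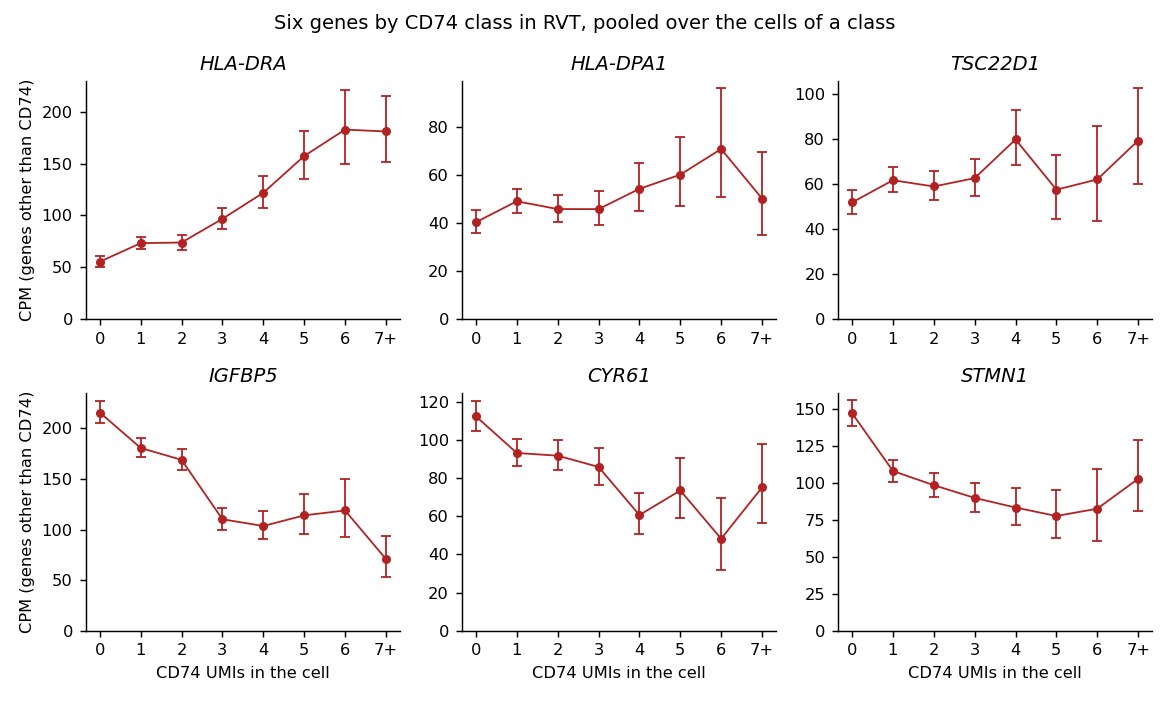
CPM (vertical axes) of 6 genes in RVT cells by *CD74* UMIs in the cell (horizontal axes). Points are sums over the cells of a class and bars are exact 95% Poisson intervals. *HLA-DRA* goes from 55.4 to 181, while *IGFBP5* goes from 216 to 71.0.

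Cell by cell, *HLA-DRA* was sparse. A UMI of it was found in 477 of 1139 CD74-high cells (41.9%, 39.0% to 44.8%) and in 346 of 2860 CD74-zero cells (12.1%, 10.9% to 13.4%), at the median depths given above. By *CD74* class the share went from 18.3% at 1 UMI over 27.6% at 3 and 35.5% at 4 to 54.6% at 7 or more. Of the CD74-high cells 339 had a single *HLA-DRA* UMI, 88 had 2, 39 had 3 and 11 had more, so most of those detected rested on 1 molecule. With cells thinned to 1500 UMIs the shares were 16.9% (15.1% to 18.8%) among cells with 2 or more *CD74* UMIs and 9.21% (8.36% to 10.1%) among those with none.

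The other class II chains had fewer UMIs. *HLA-DPA1*, the alpha chain of HLA-DP, stood at 57.1 CPM (264 UMIs) in CD74-high and 40.3 (293 UMIs) in CD74-zero cells, a log2 ratio of 0.50 (0.26 to 0.75), below the 1.5-fold mark. Depth-weighted it passed that mark at 1.57-fold, and in classes from thinned cells its log2 ratio was 0.30. Its ratio was above 1 in all 5 strata, from 1.32-fold to 2.17-fold, but the interval excluded 1 only in the deepest. Its partner *HLA-DPB1* was at 27.9 and 20.1 CPM, with a log2 ratio of 0.48 (0.12 to 0.83). For the remaining chains the counts were few, with 9 and 6 UMIs of *HLA-DRB1*, 14 and 4 of *HLA-DQA1* and 7 and 3 of *HLA-DQB1* in the CD74-high and CD74-zero cells. No UMI of *HLA-DRB5* was found in either class, and reads of *HLA-DRB1* and *HLA-DRB5* may not be told apart. Summed over the 9 chains, the level was 245 and 118 CPM, a log2 ratio of 1.05 (0.92 to 1.18), and 1.19 with depth weighting. Of the 1131 UMIs in CD74-high cells 683 were of *HLA-DRA*.

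Genes that load and process class II molecules were at like levels in both classes as a sum, while single genes differed more. *HLA-DMA*, a subunit of the peptide exchanger HLA-DM, was at 65.1 and 57.9 CPM (log2 ratio 0.17, -0.05 to 0.39), and *HLA-DMB* had 18 and 16 UMIs. *CTSS*, the protease known for cutting the invariant chain in antigen-presenting cells, had 22 and 36 UMIs. *CTSL*, which does so in other tissues, had a log2 ratio of -0.30 (-0.55 to -0.05), and *CTSB* and *LGMN* were at -0.06 each and *CTSD* at -0.17. The 10 genes of chaperones and processing together stood at 268 and 278 CPM (log2 ratio -0.05, -0.16 to 0.05). None of the 5 that passed the filter was called, beside 0.224% of all genes tested higher and 2.64% lower. All 19 class II genes together, *CD74* left out, stood at 512 and 396 CPM, with a log2 ratio of 0.37 (0.29 to 0.45). Of these genes 8 passed the filter, 1, *HLA-DRA*, was called higher and none lower, beside 0.224% and 2.64% of all genes tested, and their median log2 ratio was 0.06 against -0.11 over all genes.

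The regulators of class II transcription differed little as a sum. *CIITA*, the coactivator, had 8 UMIs in CD74-high and 7 in CD74-zero cells, or 1.73 and 0.96 CPM. Its ratio was 1.80-fold (0.57 to 5.82) and 3.36-fold depth-weighted, on too few UMIs to show a difference at this depth. *RFX5* was at 29.8 and 33.0 CPM and *RFXANK* at 11.0 and 12.5, both parts of the complex that binds the X box. *RFXAP* had 18 and 25 UMIs. Of the NF-Y subunits, *NFYA* had 14 and 28 UMIs, *NFYB* was at 29.2 and 30.5 and *NFYC* at 14.5 and 13.9 CPM. *CREB1* was at 22.3 and 21.9. None of the 5 regulators that passed the filter was called, beside 0.224% of all genes tested higher and 2.64% lower, and no call among so few is near those shares. The sum of the list had a log2 ratio of -0.06 (-0.21 to 0.10).

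None of the interferon gamma signalling genes given here was called in CD74-high cells, beside 0.224% of all genes tested higher and 2.64% lower. Those under the filter could not be called, and no call among so few genes is near those shares. *IFNGR1* had 30 and 46 UMIs, and *IFNGR2*, the other receptor chain, was at 26.2 and 31.5 CPM. The kinase *JAK1* had a log2 ratio of -0.40 (-0.65 to -0.16), or -0.38 with depth weighting, while *JAK2* had 27 and 29 UMIs. The transcription factor *IRF1*, induced by interferon gamma, was at 16.7 and 14.6 CPM and *IRF2* at 25.5 and 26.9. The feedback inhibitors *SOCS1* and *SOCS3* had 1 and 47 UMIs in CD74-high and 2 and 53 UMIs in CD74-zero cells. Of the 36 interferon response genes, 15 passed the filter, none was called higher and 1, *IFI44*, was called lower at 8.43 and 18.0 CPM, beside 0.224% and 2.64% of all genes tested. *IFITM3* and *IFITM2*, membrane proteins that hinder virus entry, had log2 ratios of 0.16 and 0.08.

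MHC class I genes were not called either. *B2M*, the light chain of class I molecules, stood at 3198 CPM in CD74-high and 4314 in CD74-zero cells, a log2 ratio of -0.43 that was -0.19 with depth weighting. *HLA-B* was at 600 and 629 CPM, and *PDIA3*, part of the peptide loading complex, at 81.3 and 108. Of 17 class I genes 12 passed the filter, 5 above and 7 below 1, beside 68.6% of all genes tested below 1, and none was called, beside 0.224% of all genes higher and 2.64% lower. In the MIF axis, *MIF* was lower in CD74-high cells, at 16.4 and 20.3 CPM. Its homologue *DDT*, at 35.2 and 35.7, and *CD44*, the signalling partner of surface CD74, at 237 and 246, had ratios near 1. The chemokine receptors *CXCR4* and *CXCR2*, also MIF receptors, had no UMI in either class and *ACKR3* had 1 in CD74-high cells.

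**Figure D3:**
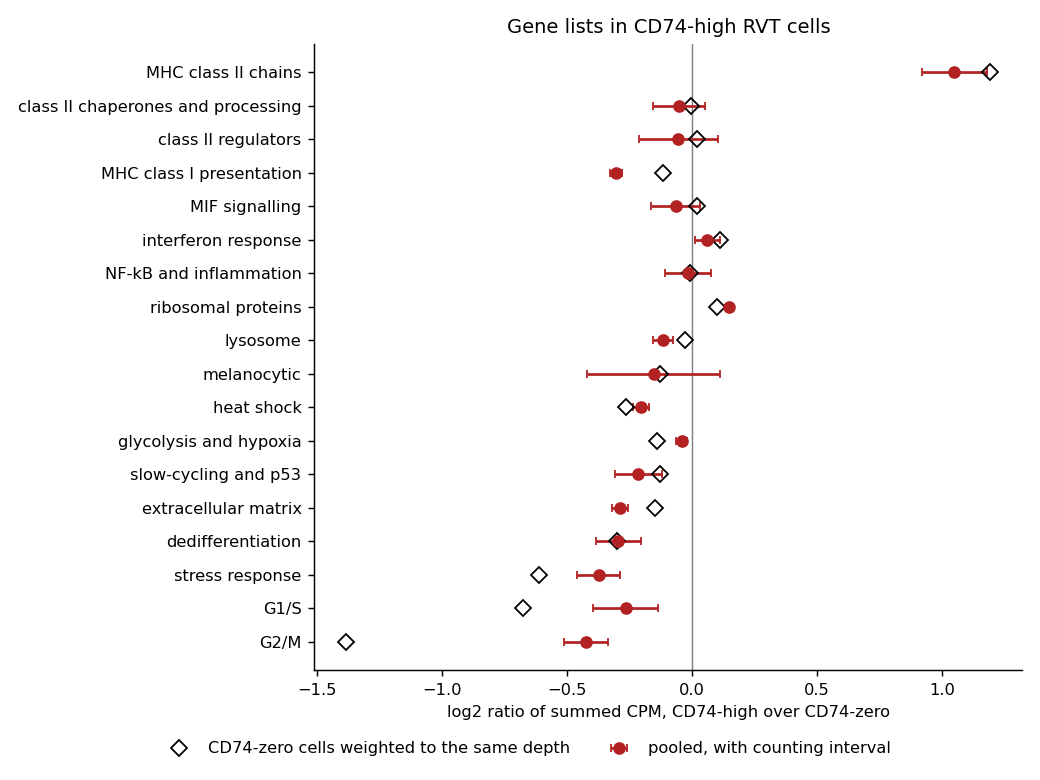
Log2 ratio of summed CPM, CD74-high over CD74-zero RVT cells (horizontal axis), for the gene lists named on the vertical axis. Red points are pooled ratios with 95% counting intervals, open diamonds are ratios with CD74-zero cells weighted to the depth of CD74-high cells. Class II chains stand at 1.05 on the right and G2/M genes at -0.43, or -1.38 depth-weighted, on the left.

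Among the 15 genes named for the largest ratios above 1, *HLA-DRA* alone passed 1.5-fold without weighting and in classes from thinned cells, and 3 passed it depth-weighted, *HLA-DRA*, *HLA-DPA1* and *TSC22D1*. After it and *HLA-DPA1* came *TSC22D1*, a leucine zipper transcription regulator, at 71.8 and 51.8 CPM (log2 ratio 0.47, 0.25 to 0.69, and 0.60 depth-weighted). *FKBP10*, a collagen chaperone of the endoplasmic reticulum, was at 120 and 92.8, the kinesin *KIF3B* at 60.8 and 46.9, and *FAM189B* at 55.8 and 42.2. *LAMTOR1*, which anchors the Ragulator complex to the lysosome, was at 112 and 90.2, *MARVELD1* at 55.4 and 43.2, *C6orf48* at 74.0 and 58.5 and the ribosomal protein gene *RPL37* at 4355 and 3512. *SELENOH*, *AGPAT1*, *ZNRD1*, *AC022035.1* and *LINC01029* had log2 ratios of 0.29 to 0.33. In classes from thinned cells 4 of these genes were below 0, *LAMTOR1* at -0.02, *C6orf48* at -0.02, *ZNRD1* at -0.0093 and *LINC01029* at -0.04, and with a high class of the 75 cells with at least 8 *CD74* UMIs *LAMTOR1* was at -0.28 and *ZNRD1* at -0.019. *LINC01029* was also at -0.04 depth-weighted without cells of 3 or more G2/M UMIs. The other 14 called genes were of lower abundance, such as *NFATC4*, a calcium-regulated transcription factor with 62 and 53 UMIs, and *TMEM132D-AS1*, an antisense RNA with 71 and 60 UMIs, which were chosen after their values were seen. Calls at such counts may be counting error.

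The 15 genes named for the lowest ratios passed 1.5-fold without weighting, 10 of them passed it depth-weighted and 3, *STMN1*, *NUCB2* and *UBE2T*, in classes from thinned cells. *IGFBP5*, a secreted binding protein of insulin-like growth factors, was at 216 CPM in CD74-zero cells, 181, 169 and 110 in cells with 1, 2 and 3 *CD74* UMIs and 103 in CD74-high cells, a log2 ratio of -1.06 (-1.22 to -0.92), which was -0.90 depth-weighted and -0.33 in classes from thinned cells. In the 5 strata its ratio was 0.83, 0.69, 0.62, 0.22 and 0.70, lowest in the fourth, where CD74-zero cells stood at 301 CPM, and the interval held 1 in the shallowest (0.67 to 1.02). *CYR61*, a matricellular protein and target of the YAP coactivator, was at 64.7 and 112 CPM (log2 ratio -0.80, and -0.35 in classes from thinned cells), and *CTGF*, another such target, had a log2 ratio of -0.68, but of 0.05 in classes from thinned cells. *VCL*, a focal adhesion protein, *FST*, an inhibitor of activin, *CD9*, a tetraspanin, *KRT80*, *IL13RA2* and the long non-coding RNA *CYTOR* had log2 ratios of -0.61 to -0.71. Depth-weighted, *CYTOR* (-0.95) and *KRT80* (-0.74) stayed past 1.5-fold, whereas *VCL* (-0.54), *FST* (-0.49), *IL13RA2* (-0.36) and *CD9* (-0.36) did not. In classes from thinned cells none of the 6 passed it, with *VCL* at -0.10 and *CD9* at 0.017. In all strata *CYR61* was below 1, from 0.45-fold to 0.87-fold, with 1 inside the interval in the deepest (0.61 to 1.26).

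Of 12 stress response genes 7 passed the filter, 2 were called lower and none higher, beside 2.64% and 0.224% of all genes tested. *HSPA5*, the main chaperone of the endoplasmic reticulum, was at 86.5 CPM in CD74-high and 137 in CD74-zero cells (log2 ratio -0.67, -0.84 to -0.50, and -0.83 depth-weighted). *DDIT3*, the stress transcription factor CHOP, was at 49.1 and 78.6 (-0.68, -0.91 to -0.46, and -1.28 depth-weighted). In classes from thinned cells *HSPA5* was at -0.20 and *DDIT3* at -0.58, both short of 1.5-fold. *ATF4* had a log2 ratio of 0.07. The sum of the list had a log2 ratio of -0.37, which was -0.61 depth-weighted and -0.29 with thinned classes. Its ratio was 0.48-fold in the deepest stratum, which holds 78 CD74-zero cells, and 0.68 to 0.89-fold in the others. Outside the list, *P4HA1* and *PLOD2*, which hydroxylate collagen and respond to hypoxia, had log2 ratios of -0.76 and -0.66 (-0.79 and -0.47 depth-weighted, -0.29 and -0.11 in classes from thinned cells), and *NUCB2*, a calcium-binding protein of the secretory pathway, had -0.77. All 11 heat shock genes were below 1, as were 68.6% of all genes tested. Their median log2 ratio was -0.25, beside -0.11 over all genes, with 1 call, *HSPA1B*, whose reads may be shared with *HSPA1A*. The *HSPA1B* log2 ratio was -0.88, and -1.02 depth-weighted, but -0.20 in classes from thinned cells, short of 1.5-fold.

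Of 17 G2/M genes 11 passed the filter and all 11 were below 1, beside 68.6% of all genes tested. Of these 2, *CCNB1* (24.4 and 44.5 CPM) and *MKI67* (15.1 and 26.4), were called lower, beside 2.64% of all genes. *CENPF* and *TOP2A*, needed for chromosome segregation, were at 65.5 and 83.2 and at 52.1 and 73.9 CPM. The sum of the list was 335 CPM in CD74-high and 449 in CD74-zero cells, a log2 ratio of -0.43 (-0.51 to -0.34), which became -1.38 with depth weighting and -0.94 with classes formed after thinning. The median over the 11 genes was -0.34, and -1.36 depth-weighted, against -0.11 and -0.05 over all genes. In the deepest stratum the list was at 608 and 1814 CPM, and in the shallowest at 147 and 277.

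Cells with 3 or more UMIs of the G2/M list, 532 of all RVT cells, had a median of 4008.5 UMIs against 2909 in the others. They made up 5.27% of CD74-high cells (60 cells) and 6.40% of CD74-zero cells (183 cells), and the intervals of 4.04% to 6.73% and 5.53% to 7.36% overlapped. In the deepest stratum they made up 38.5% of CD74-zero cells (30 of 78, 27.7% to 50.2%), 28.5%, 21.9% and 19.2% of cells with 1, 2 and 3 *CD74* UMIs, and 14.5% of CD74-high cells (33 of 228, 10.2% to 19.7%). In that stratum the share was lower at each further step of *CD74*. In the fourth stratum it was 14.8%, 10.7%, 7.37%, 12.5% and 3.07% in the same order, out of step at 3 UMIs, and the intervals of the end classes did not overlap. They overlapped in the other strata, where CD74-zero and CD74-high cells had 4.33% and 1.75% in the shallowest, 7.37% and 5.26% in the second and 6.50% and 1.76% in the middle one. In cells with 3 or more G2/M UMIs, *CD74* stood at 359 UMIs per 1000000 UMIs of all genes (335 to 385). In the other RVT cells it stood at 525 (517 to 534). This is the same relation read the other way, since *CD74* formed the classes, and is given as a description. *HLA-DRA*, which had no part in forming the classes, was at 49.2 (40.5 to 59.3) and 86.6 (83.1 to 90.2) in the same order.

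**Figure D4:**
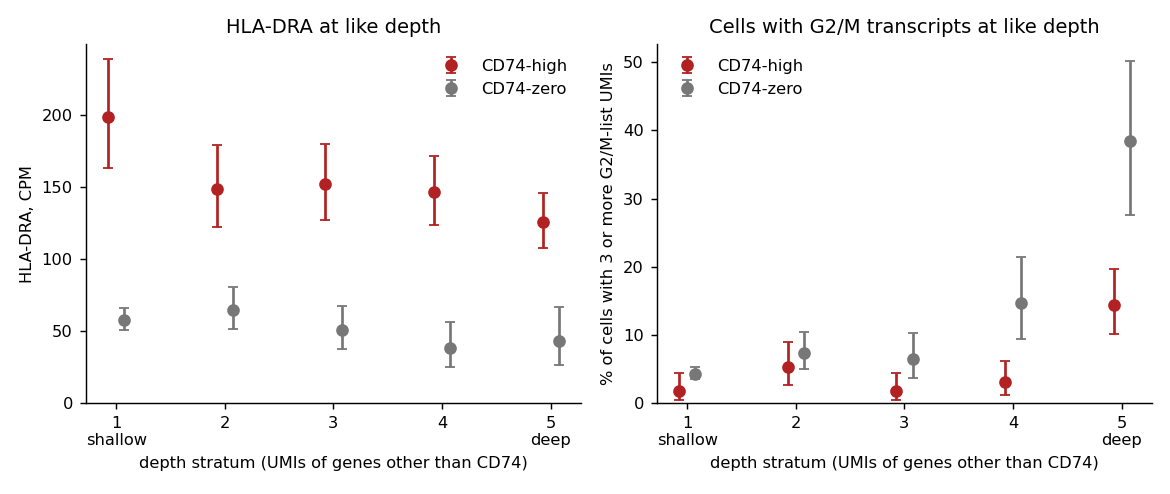
CD74-high (red) and CD74-zero (grey) RVT cells in 5 strata of depth (horizontal axes). Left, *HLA-DRA* CPM with exact Poisson intervals, from 198 to 125 in CD74-high and from 57.9 to 43.4 in CD74-zero cells. Right, the percent of cells with 3 or more UMIs of the G2/M list with exact binomial intervals, reaching 14.5% and 38.5% in the deepest stratum.

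With these 532 cells left out and depth weighted, the *HLA-DRA* log2 ratio was 1.43, and those of *DDIT3*, *HSPA5*, *IGFBP5* and *CYR61* were -1.21, -0.88, -0.95 and -0.80. In the remaining cells the proliferation-linked genes *STMN1* and *UBE2T* lay nearer to 0. *STMN1*, a microtubule destabilizer, had a log2 ratio of -0.80 pooled, -1.36 depth-weighted and -0.48 without the 532 cells, and *UBE2T*, a DNA repair ubiquitin enzyme, had -0.67, -1.37 and -0.15. Of 16 G1/S genes 8 passed the filter and all 8 were below 1, as were 68.6% of all genes tested, with a sum at -0.27 and at -0.68 depth-weighted. None of the 8 passed 1.5-fold, beside 2.64% of all genes lower and 0.224% higher. Without the 532 cells, which were taken out by their G2/M UMIs, the G2/M and G1/S sums stood at 0.12 and 0.03. In the slow-cycling and p53 list none of the 6 tested genes was called higher and 1, *TP53INP1*, was called lower, beside 0.224% and 2.64% of all genes tested. *TP53INP1* had a log2 ratio of -0.67, but of -0.07 depth-weighted and -0.14 in classes from thinned cells, short of 1.5-fold in both. *CDKN1A* was at 110 and 120 CPM and *KDM5B* at 115 and 126 CPM.

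Ribosomal protein genes lay slightly above 1. Of 86 listed, 81 passed the filter and 74 were above 1, whereas 68.6% of all genes tested were below 1. None was called, beside 0.224% of all genes higher and 2.64% lower. Their sum had a log2 ratio of 0.15, or 0.10 depth-weighted and 0.04 with thinned classes. The nuclear RNAs *MALAT1* and *NEAT1* had log2 ratios of -0.27 and -0.20, or -0.15 and 0.07 depth-weighted. *SPARC* and *THBS1* led the extracellular matrix list with -0.17 and -0.45, and 12 of its 13 tested genes were below 1, beside the same 68.6%. None of the 13 was called, beside the same 0.224% and 2.64% of all genes. The fibroblast marker *LUM* was called lower at 15.4 and 28.0 CPM, a log2 ratio of -0.87. It was -0.86 depth-weighted and fell short of the mark at -0.53 in classes from thinned cells. Of 11 dedifferentiation genes 8 passed the filter, 7 of these were below 1 and 2, *CYR61* and *CTGF*, were called lower, beside 68.6% and 2.64% of all genes. Depth-weighted both stayed past 1.5-fold, at -0.67 and -0.68, but neither did in classes from thinned cells, where *CTGF* was at 0.05. The sum of the dedifferentiation list had a log2 ratio of -0.29 (-0.39 to -0.21), or -0.30 depth-weighted and -0.11 with thinned classes. *AXL*, a receptor kinase of dedifferentiated melanoma cells, was at 98.8 and 98.1 CPM. Among genes listed for the RVT-rich cell cluster C7, a list drawn from these same libraries, *MARCKS* was at 201 and 271 and *BRAF* at 21.0 and 23.6. *MITF*, the melanocyte regulator, was at 38.5 and 42.7 CPM. Of 16 inflammation genes 7 passed the filter and 1, *CXCL1*, was called lower, beside 2.64% of all genes. Its log2 ratio of -0.74 was -1.39 depth-weighted and -0.89 in classes from thinned cells, both past 1.5-fold. It was -0.20, short of the mark, depth-weighted without cells of 3 or more G2/M UMIs. *C3* was at 136 and 135 CPM. None of the 8 glycolysis and hypoxia genes and 12 cholesterol synthesis genes tested was called, beside 0.224% of all genes higher and 2.64% lower. No call among so few genes is near those shares. *GAPDH* had a log2 ratio of 0.02 and *HMGCS1* one of -0.49. Lysosomal genes showed *CD63* at -0.15 and *NPC2* at -0.28, and of the MAPK output genes *DUSP6* was at -0.47 and *PHLDA1* at 0.12 (0.43 depth-weighted). None of the 14 lysosomal and 11 MAPK output genes tested was called, beside the same shares of all genes.

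The same division was made in the other cultures, where the class sizes and depths differ and no difference between libraries could be tested. S and RV were deposited with 33694 genes and RVC and RVT with 33538, so these pairs were counted on different gene lists. The part of this in the differences between cultures was not tested. CD74-high cells numbered 3746 in S, 1108 in RV and 232 in RVC. S cells had an *HLA-DRA* ratio of 36.1-fold (27.7 to 47.8), RV cells of 50.2-fold (34.8 to 75.3) and RVC cells of 3.59-fold (2.63 to 4.84), beside 2.67-fold for RVT, and with classes formed from cells thinned to 1500 UMIs it was 7.74, 25.1, 3.27 and 1.88-fold. CD74-high cells of S, RV, RVC and RVT held 188, 92.4, 36.2 and 148 CPM of *HLA-DRA*, respectively, and the CD74-zero cells 5.22, 1.84, 10.1 and 55.4 CPM. Thus the RVT cells without a *CD74* UMI had the highest level of that class and the lowest ratio. These CD74-zero cells differ in depth, with medians of 9117 UMIs in S and 2351.5 in RVT. At 1500 UMIs per cell, 4.52%, 1.44%, 1.68% and 9.21% of cells without a *CD74* UMI in S, RV, RVC and RVT had an *HLA-DRA* UMI, a smaller gap between S and RVT. *HLA-DPA1* had ratios of 7.91, 4.59, 1.80 and 1.42-fold in the same order, and *HLA-DMA* 6.38, 4.12, 1.26 and 1.12-fold. In classes from thinned cells *HLA-DPA1* was at 4.34, 4.40, 1.62 and 1.23-fold, and *HLA-DMA* at 4.63, 5.45, 1.504 and 0.94-fold. The *HLA-DMA* ratio in RVT was thus below 1 in those classes.

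**Figure D5:**
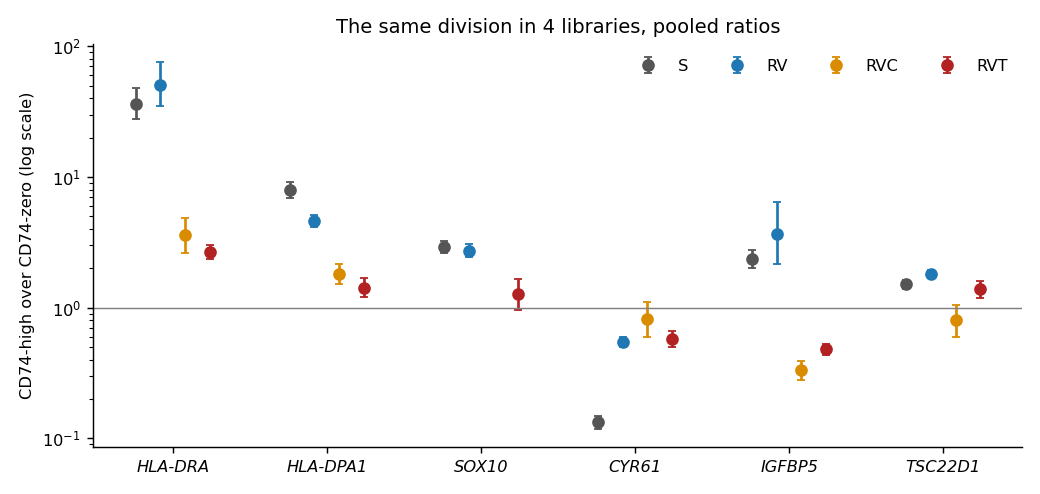
Ratio of CD74-high over CD74-zero cells (vertical axis, log scale) for 6 genes (horizontal axis) in S, RV, RVC and RVT, with 95% counting intervals. *HLA-DRA* stands at 36.1 and 50.2-fold in S and RV and at 2.67-fold in RVT, and *SOX10* has no RVC point because neither RVC class had a UMI of it.

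Markers of neural crest-like cells accompanied *CD74* in S and RV. *SOX10*, a neural crest transcription factor, was 2.91-fold higher in CD74-high cells of S and 2.72-fold in RV, *ERBB3*, a neuregulin receptor, 5.64 and 8.08-fold, *RAMP1* 5.80 and 3.90-fold and *S100B* 16.2 and 18.0-fold. In classes from thinned cells the ratios in S were lower, at 1.96-fold for *SOX10*, 2.60 for *ERBB3*, 3.22 for *RAMP1* and 5.90 for *S100B*, and those in RV were 2.93, 6.01, 4.45 and 13.5-fold. In RVT *SOX10* was at 21.2 and 16.8 CPM, a ratio of 1.26-fold (0.96 to 1.66) whose interval holds 1. The other markers were near absent, with 3 and 8 UMIs of *ERBB3*, 7 and 13 of *RAMP1* and 0 and 4 of *S100B* in CD74-high and CD74-zero RVT cells. The RVT cells were therefore called by their *CD74* content and not as neural crest-like. Genes 1.5-fold higher made up 4.78% of 5753 genes in S, 2.46% of 5820 in RV and 2.47% of 5998 in RVC, and genes lower 3.88%, 1.24% and 3.30%. CD74-high and CD74-zero cells had nearly equal median depth in S and RV (ratios 0.98 and 1.01), but not in RVC (1.89) or RVT (1.66).

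The ratios of the genes given next varied across cultures in size or in direction. *CYR61* was lower in CD74-high cells of S (0.13-fold), RV (0.54-fold) and RVT (0.58-fold), and at 0.82-fold in RVC with 1 inside the interval (0.60 to 1.10). *TSC22D1* had log2 ratios of 0.59, 0.86 and 0.47 in S, RV and RVT but of -0.32 in RVC, where the interval of 0.60 to 1.05-fold held 1. In classes from thinned cells *TSC22D1* was above 1 in S, RV, RVC and RVT, at 1.66, 2.14, 1.32 and 1.26-fold. *STMN1* ratios for S, RV, RVC and RVT were 0.86, 0.95, 0.58 and 0.58-fold. Depth-weighted, *STMN1* was at 0.70-fold in RVC and 0.39-fold in RVT, and in classes from thinned cells at 0.82 and 0.64-fold, so that RVC did not pass 1.5-fold in either. *IGFBP5* was at 2.35-fold in S and 3.65-fold in RV but at 0.33-fold in RVC and 0.48-fold in RVT. In RV its levels were low, at 4.40 and 1.20 CPM from 62 and 19 UMIs. Depth-weighted it was at 0.56-fold in RVC and 0.53-fold in RVT. In classes from thinned cells it was at 1.44, 6.41, 0.34 and 0.79-fold in S, RV, RVC and RVT. Genes with at least 50 CPM in another library and 20-fold above RVT were not higher in CD74-high RVT cells, with 305 and 354 CPM for 38 genes of S, 384 and 437 for 45 genes of RV and 54.1 and 76.8 for 19 genes of RVC.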

How the data were processed

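The deposited tables hold raw UMI counts, not normalized, for each gene in each cell barcode, which the authors made from 10x Genomics Chromium v2 libraries with Cell Ranger on GRCh38 (bcl2fastq 2.20.0.422, both per the submitters' processing notes). Which gene annotation and barcode filters preceded deposit is not given in the sources used here. Gene identifiers were matched to GENCODE 29 (33456 of 33538 in RVT).

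Barcodes needed 500 genes and at most 20% mitochondrial UMIs. The counts were summed over the cells of each class. With 1 library per condition there was no test. Ratios took a class at no less than 3 UMIs, and ranges are exact 95% intervals. Doublet scores came from scrublet (scanpy 1.11.5), whose own threshold marked 1 barcode, so doublets were kept. Scripts used python 3.11.15, numpy 2.4.6, scipy 1.17.1, pandas 2.3.3 and matplotlib 3.10.9.

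Named genes were the 15 largest and 15 smallest ratios among genes with at least 10 CPM, at least 50 in the higher class and the same direction depth-weighted, with the members of the class II, MIF and interferon gamma lists and leading members of the other lists. Some list members, and sums that hold them, are not reported here. The members and lists were chosen with earlier results of these data known. On simulated sums of 6708 genes, 98.5% of 200 genes changed 2-fold were called and 0.476% of unchanged genes. When 200 genes instead followed only the depth stratum of the cell, 75.0% were called without weighting and 2.50% with depth weighting. The weighting uses these same strata, so this low share does not test depth differences within a stratum. In the data the shallowest stratum was not fully matched, with medians of 2560.5 UMIs in CD74-high and 1945 in CD74-zero cells.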

Additional observations from a re-analysis of the deposited data

Results flagged for a closer look

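Among named genes with at least 3 UMIs in both classes, 3 had a ratio of CD74-high over CD74-zero cells that passed 1.5-fold in RVT and passed it in the opposite direction in another culture. *FST* also did so, with a log2 ratio of -0.61 in RVT and 2.02 in RVC, but the RVC value rests on 2 and 8 UMIs, the 2 taken as 3 in the ratio, with an interval of -1.84 to 3.76. Each culture is 1 library, so these differences were not tested. *IGFBP5* had a log2 ratio of -1.06 in RVT against 1.23 in S and 1.87 in RV. *IL13RA2*, a decoy receptor of interleukin 13, had -0.64 in RVT against 1.13 in S and 0.64 in RV. *KRT80*, a keratin, had -0.66 in RVT against 0.66 in RVC, where CD74-high cells are 1.89 times as deep in the median as CD74-zero cells. The RVC value of *KRT80* rests on 35 and 240 UMIs, with an interval of 0.10 to 1.17. The RVT values rest on the ratio without weighting. Depth-weighted they were -0.90, -0.36 and -0.74 for *IGFBP5*, *IL13RA2* and *KRT80*, so that *IL13RA2* no longer passed 1.5-fold, and in classes from thinned cells they were -0.33, -0.42 and -0.57, none past it. In those classes *IGFBP5* was at 1.44-fold in S, also short of the mark, and at 6.41-fold in RV from 7 and 8 UMIs.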

How the results depend on the processing

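The counts of called genes depended on the processing, whereas the direction of the *HLA-DRA* and class II list ratios did not. Against 15 higher and 177 lower genes, depth weighting gave 111 higher genes, thinning the other genes to 1500 UMIs gave 113 and 412, and classes from thinned cells gave 41 higher. A class of at least 2 *CD74* UMIs gave 7 and 29, and one of at least 8, with 75 cells, gave 394 and 1356. A class by *CD74* CPM of the cell gave 24 higher and a minimum of 1000 genes 57 higher. Scaling without ribosomal and mitochondrial genes gave 53 and 83, centring on the median gene 59 and 77, a filter of 3 CPM 152 and 601, and a filter of 50 CPM 1 and 18. By construction the lower filter adds genes of few UMIs and the class of 75 cells has fewer UMIs, and the cause of the other shifts was not tested. The *HLA-DRA* log2 ratio was 1.67 with other genes thinned, 0.91 in classes from thinned cells, 0.91 at 2 or more and 1.76 at 8 or more *CD74* UMIs. The class II list ratio was 0.28 in classes from thinned cells, 0.15 and 0.56 at 2 and 8 UMIs, 0.47 without ribosomal and mitochondrial genes and 0.48 centred.

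Alternatives chosen after seeing the data were depth weighting with centring (157 higher genes, *HLA-DRA* 1.65, class II list 0.50), depth weighting without cells of 3 or more G2/M UMIs (145 higher genes, class II list 0.45) and leaving out shared barcodes. *CD9* had a log2 ratio of 0.017 in classes from thinned cells. With thinned classes, 24 of 29 named genes other than *HLA-DRA* kept their direction, the exceptions besides *CD9* being *LAMTOR1*, *C6orf48*, *ZNRD1* and *LINC01029*. No paired analysis was possible because each condition has 1 library, and for the same reason no replicate could be left out. At RVT depth, genes under 10 CPM, *CIITA* and most class II chains among them, were too sparse for a comparison.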
